A study of Mus musculus with 16 samples.

Results

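The genes described here were read at a clear level in every Nrf2-/- library of mIMCD3 cells and at or near 0 in WT libraries. They were chosen by raw count, with at least 100 counts in each of the 4 Nrf2-/- libraries and at most 10 in each of 6 WT libraries, leaving out symbols that begin with Slc, Zfp, Hox, Col or Kcn. This gave 21 genes of the 55367 listed. Because the choice was made on these counts, the contrast between Nrf2-/- and WT cells is a description and was not tested.

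mIMCD3 is an immortal mouse line derived from the last, medullary stretch of the collecting duct, the kidney segment where urine is concentrated. Nrf2, encoded by Nfe2l2, is the transcription factor that drives antioxidant and detoxifying genes, and SFN (sulforaphane) is a small molecule that activates it. RNA sequencing covered 16 libraries, 2 for each of 8 groups. WT cells received DMSO, the vehicle, or SFN at 10 μM for 5 h and were collected under isosmotic conditions or after 1 h or 6 h of hyperosmotic stress. Nrf2-/- cells were all treated with SFN and were collected under isosmotic conditions or after 1 h of stress. The 6 WT libraries of the rule were DMSO isosmotic, SFN isosmotic and SFN 1 h. DMSO 1 h, DMSO 6 h and SFN 6 h of WT cells did not enter it. Nrf2-/- cells in DMSO or at 6 h were not analysed here.

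The Nrf2-/- line was made with lentiviral Cas9 and a guide RNA and selected with blasticidin and puromycin. The methods do not say whether it is 1 clone, or whether the WT cells carried Cas9 or a control guide. Loss of Nrf2 and the derivation and selection of the line therefore cannot be told apart in these data. In bulk RNA, more cells that express a gene and more RNA per cell cannot be told apart either.

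Nfe2l2 itself was read at 391 and 433 counts in the isosmotic and 389 and 386 in the 1 h Nrf2-/- libraries, against 2496 to 5013 in the 12 WT libraries. Library totals lay between 34484296 and 50774875 counts. The pair of Nrf2-/- 1 h libraries stood apart from each other, with a biological coefficient of variation, the relative spread between replicates, of 0.348 against 0.0395 to 0.128 in the other groups. Without both of them the rule, which is then looser, found 26 genes. Aqp2, the water channel that defines principal cells of the collecting duct, was near absent in both lines, at 0 to 2 counts in Nrf2-/- and 0 to 11 in WT libraries.

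Several of the genes belong to stratified epithelia such as epidermis and bladder lining. In those tissues the transcription factor p63 (Trp63) marks basal cells and switches on keratins and desmosomal cadherins, the proteins that give the cell sheet its strength. The collecting duct is a simple epithelium, which lacks most of these proteins. Other members are known from neurons, immune cells or developing tissue. They were grouped by known function into 5 genes of stratified epithelia, 7 surface and adhesion proteins, 5 proteins that bind RNA or DNA, 2 enzyme or matrix proteins and 2 little known genes. The grouping was made by hand.

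The RefSeq promoter table used here matched 10 of the 21 genes by symbol, as 14 entries of 300 bases that run from 250 before to 50 after the start. Of these, 4 are shown because they span the range from CpG-poor to CpG-rich starts among the matched members. Capitals mark CpG, the dinucleotide at which mammalian DNA is methylated. All are written 5′ to 3′ on the strand of the gene in GRCm38.p6, the assembly also called mm10, in the order Elavl4 at chr4:110351862-110352161 on the minus strand, Serpinb5 at chr1:106860925-106861224 on the plus strand, Aim2 at chr1:173420354-173420653 on the plus strand and Cd36 at chr5:17835847-17836146 on the minus strand.
Elavl4: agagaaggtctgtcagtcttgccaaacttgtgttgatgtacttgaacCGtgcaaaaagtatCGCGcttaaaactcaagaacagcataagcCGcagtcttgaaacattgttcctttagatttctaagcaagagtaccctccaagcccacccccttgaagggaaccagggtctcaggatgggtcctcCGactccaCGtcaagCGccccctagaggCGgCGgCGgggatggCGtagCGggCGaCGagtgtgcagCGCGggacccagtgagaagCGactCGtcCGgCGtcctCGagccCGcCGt
Serpinb5: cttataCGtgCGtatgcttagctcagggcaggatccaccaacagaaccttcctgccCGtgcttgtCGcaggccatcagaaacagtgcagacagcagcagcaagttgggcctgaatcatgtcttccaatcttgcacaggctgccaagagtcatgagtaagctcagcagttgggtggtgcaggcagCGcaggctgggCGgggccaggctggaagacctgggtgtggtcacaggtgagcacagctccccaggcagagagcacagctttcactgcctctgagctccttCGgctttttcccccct
Aim2: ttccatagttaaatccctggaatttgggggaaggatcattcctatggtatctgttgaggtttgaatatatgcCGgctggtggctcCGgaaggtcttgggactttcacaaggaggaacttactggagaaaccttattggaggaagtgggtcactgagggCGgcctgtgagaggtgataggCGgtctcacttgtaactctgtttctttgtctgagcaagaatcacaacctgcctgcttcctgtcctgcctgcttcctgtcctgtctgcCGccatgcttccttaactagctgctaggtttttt
Cd36: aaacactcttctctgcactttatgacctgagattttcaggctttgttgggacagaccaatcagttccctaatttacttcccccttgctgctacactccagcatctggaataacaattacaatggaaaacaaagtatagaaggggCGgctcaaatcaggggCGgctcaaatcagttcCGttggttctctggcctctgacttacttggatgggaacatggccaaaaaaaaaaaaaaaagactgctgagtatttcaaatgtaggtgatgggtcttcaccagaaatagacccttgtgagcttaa
These entries hold 23 CpG in Elavl4, 7 in Serpinb5, 5 in Aim2 and 3 in Cd36. The gene annotation places the outermost start of Cd36 at 17888801 and of Aim2 at 173350879, so their printed entries lie inside the annotated genes. Which start these cells used was not tested. Elavl4 also has entries with 4, 5 and 6 CpG, which are not printed.

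By these entries the matched members had no common promoter class. Their 14 entries held 3 to 23 CpG with a median of 7, and the median of all 32851 promoters was also 7. The core of the antioxidant response element to which Nrf2 binds, TGANNNNGC on either strand, was present in 6 of 14 entries, from Aim2, Elavl4, Hdx, Serpinb5 and Xlr, and in 41.3% of all promoters. Its first letters are shared with the AP-1 site. The tonicity element bound by NFAT5, the factor of the osmotic response, was found in 1 of 14 entries (Xlr) and in 5.28% of all promoters. The half-site of the p53 family, searched by its name pattern on both strands, was found in 2 of 14 (Ackr3 and Elavl4) and in 8.36% of all promoters. The Elavl4 matches lie in its entries with 4, 5 and 6 CpG and not in the printed start. Its entries with 5 and 6 CpG overlap, so the same antioxidant site may count in both. A match is a run of letters and no evidence of binding.

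**Figure D1:**
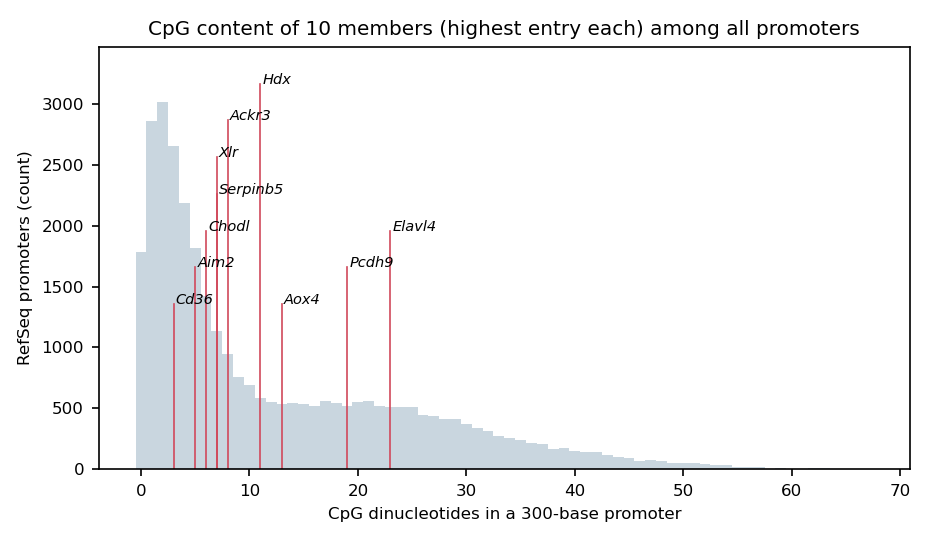
Number of CpG dinucleotides in 300-base RefSeq promoters (x axis) against the number of promoters (y axis, grey bars). Red lines mark the 10 members with an entry, by their richest entry, from 3 in Cd36 to 23 in Elavl4, on both sides of the median of 7.

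Elavl4 and Cldn9 led the group, followed at a distance by Serpinb5 and Dynap. Cldn9 had a mean of 88.4 ± 12.8 CPM (counts per 1000000 after TMM scaling, SD, n = 4 Nrf2-/- libraries) and Elavl4 70.5 ± 12.9. Serpinb5 stood at 25.5 ± 4.50 CPM and Dynap at 21.5 ± 2.32, and the lowest member, Platr16, at 3.97 ± 1.25. Per kb of exon, the scale on which genes can be ranked, the order was Cldn9 with 61.2 CPM per kb, Dynap with 17.6, Clec2f with 16.4 and Elavl4 with 13.1. On the same scale Pcdh9 with 0.704, Plag1 with 0.628 and Trp63 with 0.506 CPM per kb were the lowest. Summed over the 21 genes, a Nrf2-/- library held 328 to 375 CPM, a WT library of the rule 1.04 to 1.39 CPM and the other WT libraries 2.08 to 3.15 CPM.

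**Figure D2:**
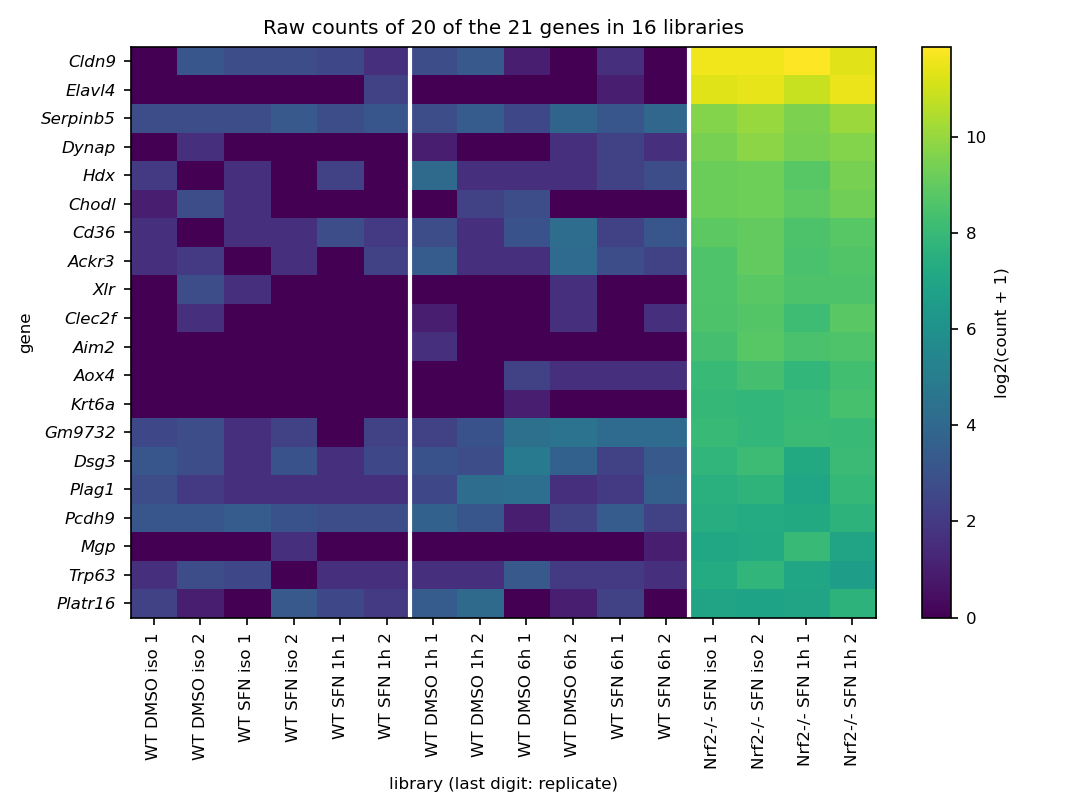
Raw counts of 20 of the 21 genes (rows, ordered by mean level in Nrf2-/- cells) in 16 libraries (columns), coloured by log2(count + 1). White lines part the 6 WT libraries of the rule, the 6 other WT libraries and the 4 Nrf2-/- libraries. The Nrf2-/- block is filled in every row, while the middle block is dark except for scattered low values, of which the highest is 28.

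Among the genes of stratified epithelia, Trp63, the p53-family factor of basal cells, was the scarcest. It was read at 158 and 222 counts in the isosmotic and 127 and 101 in the 1 h Nrf2-/- libraries, and between 0 and 6 (median 2) in the 6 WT libraries of the rule. At 6 h the WT libraries held 9 and 3 counts in DMSO and 3 and 2 in SFN. All 4 Nrf2-/- values lay far above every WT value, yet the 1 h value of 101 is the closest of any member to the minimum of 100. The annotation places Trp63 on chromosome 16 from 25683763 to 25892102 (plus strand, GRCm38).

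Krt6a, a type II keratin of activated and stratified epithelium, was read at 239 and 227 counts in isosmotic and 262 and 340 in 1 h Nrf2-/- libraries. All 6 WT libraries of the rule were at 0. Of the other 6 WT libraries, DMSO 6 h replicate 1 held 1 count and the rest 0. Krt6a is thus among the cleanest on and off cases, although its exons overlap those of 2 other annotated genes, Gm44342 and Gm49428, so reads may be shared.

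Dsg3, a desmosomal cadherin, was read at 224 and 282 counts in isosmotic and 145 and 274 in 1 h Nrf2-/- libraries, against 2 to 8 (median 5.5) in the WT libraries of the rule. At 6 h the WT values were 28 and 12 in DMSO and 4 and 9 in SFN, and 28 is the highest count of any member in a WT library. Serpinb5 encodes maspin, a serpin of epithelial cells that does not inhibit proteases. It was read at 797, 1030, 738 and 1064 counts in the Nrf2-/- libraries and at 6 to 9 (median 6) in those of the rule, so a low but steady signal was present in WT cells. At 6 h it was read at 5 and 13 counts in DMSO and 8 and 14 in SFN.

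The surface and adhesion proteins held both high and low members. Cldn9, a claudin of tight junctions, was read at 3126 and 3131 counts in isosmotic and 3725 and 2599 in 1 h Nrf2-/- libraries. WT libraries of the rule held 0 to 8 (median 5.5), and at 6 h the values were 1 and 0 in DMSO and 2 and 0 in SFN. Cldn9 therefore had the highest level of all members and was almost unread in WT cells at 6 h. It lies on chromosome 17 from 23682584 to 23684026 (minus strand).

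Dynap, a transmembrane protein that binds dynactin, was read at 691, 878, 683 and 813 counts in the Nrf2-/- libraries and at 0 to 2 (median 0) in those of the rule. Chodl, a membrane protein with a C-type lectin domain, was read at 586, 603, 478 and 624 counts, against 0 to 6 (median 0.5). Clec2f, a locus of the C-type lectin family that is annotated as a transcribed pseudogene, was read at 373, 413, 285 and 458 counts, against 0 to 2 (median 0). These 3 genes were also low at 6 h, with WT counts of 0 to 4 for Dynap, 0 to 6 for Chodl and 0 to 2 for Clec2f. Reads of Clec2f, as of Xlr, Krt6a, Aox4 and Gm9732 described below, may be split with paralogs.

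Cd36, the scavenger receptor that takes up fatty acids, was read at 475, 524, 370 and 436 counts in the Nrf2-/- libraries and at 0 to 6 (median 2) in those of the rule. Ackr3, an atypical receptor for the chemokine CXCL12, was read at 382, 520, 349 and 398 counts, against 0 to 4 (median 2). Both showed 1 higher WT library at 6 h, DMSO replicate 2, with 18 counts of Cd36 and 17 of Ackr3. The other 6 h libraries held 4 to 8 counts of Cd36 and 2 to 6 of Ackr3. Pcdh9, a protocadherin, was read at 169, 157, 149 and 203 counts, against 6 to 10 (median 7.5), and is the member nearest to the WT maximum of 10.

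Elavl4 is the neuronal RNA-binding protein HuD, which stabilises messages with AU-rich elements. It was read at 2500 and 2760 counts in isosmotic and 1870 and 2908 in 1 h Nrf2-/- libraries. Of the 12 WT libraries, SFN 1 h replicate 2 held 4 counts, SFN 6 h replicate 1 held 1 and the other 10 held 0. Elavl4 was thus abundant in 1 line and practically unread in the other. It lies on chromosome 4 from 110203722 to 110351909 (minus strand), and its CpG-rich start is the one printed above.

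Aim2, the cytosolic DNA sensor of an inflammasome, was read at 328, 439, 349 and 385 counts in the Nrf2-/- libraries. It was at 0 in every WT library but DMSO 1 h replicate 1, with 2 counts. Xlr, a nuclear protein of the X-linked lymphocyte-regulated family, was read at 382, 457, 368 and 375 counts, against 0 to 6 (median 0), and had the smallest relative spread of all members, 7.33% of its mean. At 6 h it was at 2 counts in DMSO replicate 2 and at 0 in the other 3 libraries.

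Hdx, a homeobox protein, was read at 580, 608, 438 and 695 counts in the Nrf2-/- libraries and 0 to 4 (median 1) in those of the rule. It was above 10 in 1 of the other WT libraries, DMSO 1 h replicate 1, with 16 counts. Plag1, a zinc finger transcription factor of growth and development, was read at 182, 210, 130 and 236 counts, against 2 to 6 (median 2). Plag1 was uneven in the remaining WT libraries, with 5 and 18 counts at DMSO 1 h, 19 and 2 at DMSO 6 h and 3 and 11 at SFN 6 h, so replicates of the same group differed more than the groups did.

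The last 4 genes were an enzyme, a matrix protein and 2 little known loci. Aox4, an aldehyde oxidase, was read at 264, 325, 233 and 309 counts in the Nrf2-/- libraries and at 0 in all 6 WT libraries of the rule. Mgp, the matrix Gla protein that restrains calcification, was read at 134, 152, 259 and 122 counts, against 0 to 2 (median 0). Its 1 h replicate 1 was well above the other 3 libraries, and its relative spread was the largest of the members, 38.0% of its mean.

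Gm9732, a predicted gene, was read at 250, 231, 273 and 263 counts in the Nrf2-/- libraries and 0 to 6 (median 4) in WT libraries of the rule. In WT cells at 6 h it had the highest mean CPM of the members, with 20 and 22 counts in DMSO and 17 and 17 in SFN. It was the single member above 10 in all 4 libraries. Among the 10987 genes that had a count in the 6 WT libraries of the rule but none above 10, that share was 3.52%. Platr16, a long noncoding RNA, was read at 122, 116, 122 and 202 counts, against 0 to 9 (median 3.5). Exons of Gm9732 overlap those of Gm8127, and exons of Platr16 overlap Gm13230. Aox4 overlaps Gm15759 and Hdx overlaps Gm7340 in the same way. The strand setting of the counting is not given in the sources used here, so the counts of these 4 genes and of Krt6a may include reads of the overlapping gene.

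The rule has hard edges. The members just above the minimum in Nrf2-/- cells were Trp63 with a lowest value of 101, Platr16 with 116 and Mgp with 122. Just outside it were Gm773 with 96, Gm14409 with 89 and Gm42490 with 86. On the WT side, Pcdh9 reached 10 and Platr16 and Serpinb5 reached 9, while Arhgdib with 11, Smoc1 with 12 and Rex2 with 13 were left out. The opposite rule, at least 100 in each of the 6 WT libraries and at most 10 in each Nrf2-/- library, found 96 genes.

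In WT cells outside the rule no member reached 100 counts. At 6 h of stress, 15 of the 21 genes were at or below 10 counts in all 4 libraries. The 6 genes above 10 in at least 1 of them were Serpinb5, Cd36, Ackr3, Gm9732, Dsg3 and Plag1. Among the 10987 genes that had a count in the 6 WT libraries of the rule but none above 10, 14.7% passed 10 in at least 1 library at 6 h, and 50 reached 100. Aim2, Aox4 and Krt6a, at 0 in those 6 libraries, are not among the 10987. Over all 6 WT libraries outside the rule, 12 of the 21 genes stayed at or below 10, and 16 of 126 values were above it. The other 9 passed 10 in at least 1 of these libraries, as did 17.9% of the 10987 low genes.

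As a share of the Nrf2-/- mean in CPM, the mean of the 4 WT libraries at 6 h was 7.99% for Gm9732, 6.09% for Dsg3, 4.90% for Plag1, 2.99% for Pcdh9 and 2.97% for Trp63. It was 2.22% for Cd36, 1.91% for Ackr3 and 1.19% for Serpinb5, and below that for the other 13 genes. No member came near its Nrf2-/- level under 6 h of stress in WT cells. Nrf2-/- cells at 6 h were not analysed here, so the comparison is with isosmotic and 1 h libraries.

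Neither group of the time course within WT cells entered the rule, but the test took its spread per gene from all 16 libraries, including those of the rule. Between DMSO 6 h and DMSO 1 h, edgeR's quasi-likelihood test with Benjamini-Hochberg adjustment called 6 of the 21 genes at an adjusted p under 0.05, 4 higher and 2 lower, and of the 19509 genes tested 42.4% were called, with 20.4% higher and 22% lower. However, 17 of the 21 genes passed the filter on low counts only through other libraries, in which the Nrf2-/- cells are high by choice. With the 4 compared libraries alone, 4 members could be tested. Of these, Gm9732 (edgeR adjusted p = 0.0104) and Dsg3 (edgeR adjusted p = 0.0248) were called higher and 0 lower, and 65.6% of all 17156 genes tested were called.

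Gm9732 rose from 4 and 7 counts to 20 and 22, a log2 fold change of 2.19 ± 0.51 (SE) with an edgeR adjusted p of 0.00304. Its 1 h and 6 h libraries did not overlap, and without DMSO 1 h replicate 1 the value was 1.73 with an edgeR adjusted p of 0.0512. Dsg3 rose from 7 and 6 counts to 28 and 12, a log2 fold change of 1.88 ± 0.58 (SE) with an edgeR adjusted p of 0.0175. Without DMSO 6 h replicate 1 it was 1.20 with an edgeR adjusted p of 0.232, and the call was also lost without either 1 h library (edgeR adjusted p = 0.0907 without replicate 1 and 0.0793 without replicate 2).

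Of the other called genes, Cd36, Aox4 and Platr16 were too low in WT cells to be tested without the Nrf2-/- libraries and are given by their counts. Cd36 was at 6 and 2 counts at 1 h and at 7 and 18 at 6 h. Aox4 was at 0 in both 1 h libraries and at 4 and 2 counts at 6 h, and Platr16 at 10 and 16 counts and then at 0 and 1. Each of these 3 calls was also lost when 1 of the compared libraries was left out. The counts of these 5 genes were 28 or fewer, in libraries of at least 34484296 counts. Of the WT counts of members between 1 and 10, 73.3% were even, so a count may not be an independent fragment.

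**Figure D3:**
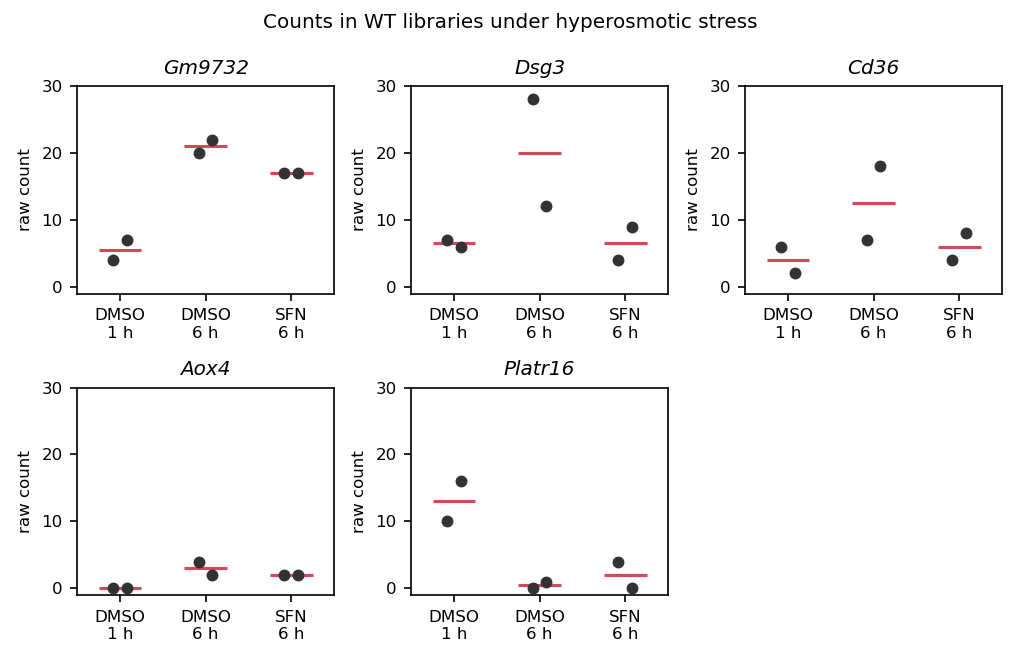
Raw counts (y axis) of 5 of the 6 members called between 1 h and 6 h of stress, in WT libraries of DMSO 1 h, DMSO 6 h and SFN 6 h (x axis). Points are the 2 libraries of a group and red lines their mean. Gm9732 sits at 20 and 22 counts at DMSO 6 h above 4 and 7 at 1 h, and no value passes 28. Cd36, Aox4 and Platr16 passed the filter only through other libraries.

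The effect of SFN in WT cells at 6 h could be tested for few members. Between SFN 6 h and DMSO 6 h, 0 of 21 genes were called by edgeR and 0 by DESeq2, but only 4 of the 21 passed the filter with these libraries alone, and 1 gene, Dsg3, had an unadjusted p under 0.05 in edgeR. Dsg3 was at 4 and 9 counts with SFN and 28 and 12 with DMSO, a log2 fold change of -1.58 ± 0.59 (SE, edgeR adjusted p = 1). The background was low too, with 0.041% of all genes called, and 718 of all 19509 genes tested had an unadjusted p under 0.05 in edgeR. The members lay between 0 and 28 counts in these 4 libraries, which limits what change the test can show.

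Between 1 h of hyperosmotic stress and isosmotic conditions in Nrf2-/- cells, the differences of the members were within the spread of the libraries. Both groups had to pass the same minimum of 100, which fixes no direction but had left out genes that were low in either, so the count of calls does not show that stress leaves such genes unaltered. edgeR called 0 of 21 genes, with 0 at an unadjusted p under 0.05, and DESeq2 also called 0. In edgeR, 3987 of all 19509 genes tested had an unadjusted p under 0.05. Of all genes tested, 7.17% were called, 4.36% higher and 2.81% lower. With only the 4 compared libraries, 3 of 15566 genes were called higher and 4 lower, and 0 of the 21. The share of all genes called thus depends on whether the other groups are in the fit. The log2 fold changes ran from -0.68 ± 0.48 (SE) in Trp63, the lowest edgeR adjusted p among the members at 0.476, to 0.49 ± 0.57 (SE) in Platr16. Their median was -0.03 against 0.05 for all genes.

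The replicates set these limits. In the 1 h pair, the ratio of replicate 2 to replicate 1 in CPM ran from 0.480 in Mgp to 1.92 in Dsg3, and 16 of 21 genes were higher in replicate 2. In the isosmotic pair the ratio ran from 0.873 to 1.33, and 14 of 21 genes were higher in replicate 2. For 6 genes, among them Cd36, Gm9732, Krt6a, Trp63 and Xlr, the 1 h and isosmotic CPM did not overlap, and the same held for 26.2% of all genes with at least 100 counts in each Nrf2-/- library. The median of the members turned positive without the isosmotic replicate 2 (0.02) or without the 1 h replicate 1 (0.13).

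**Figure D4:**
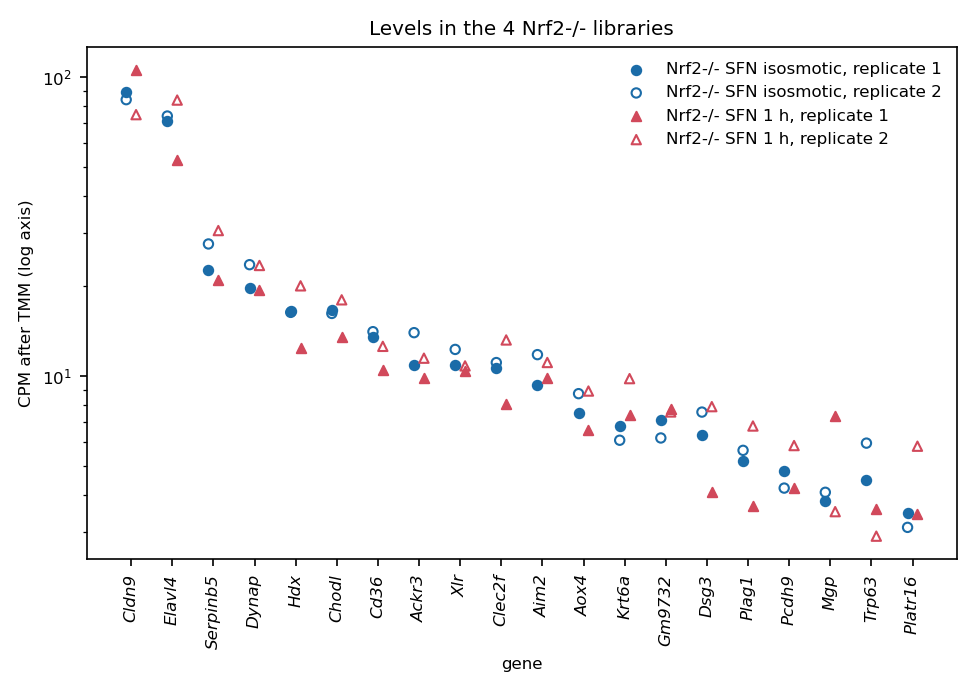
CPM after TMM scaling (y axis, log scale) of 20 of the 21 genes (x axis) in the 4 Nrf2-/- libraries. Blue circles are isosmotic and red triangles 1 h of stress, filled for replicate 1 and open for replicate 2. The triangles lie farther apart than the circles in most genes, with replicate 2 over replicate 1 from 0.480 in Mgp to 1.92 in Dsg3 at 1 h, and with exceptions such as Xlr and Gm9732.

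The members are single genes of larger families, and for none of 12 families examined did a second gene meet the rule. Families and neighbours were looked at after the values of the members were known, and the genes named from them were chosen in that knowledge. Of 23 claudins, 6 were at 100 or more counts in every Nrf2-/- library and 5 in every WT library. Of all 55367 genes listed, 10262 were at 100 or more in every Nrf2-/- library. Cldn1 was among the 6 claudins, at 4384 to 7412 counts against 308 to 1040 in WT. Of 4 Elavl genes, the ubiquitous Elavl1 was read in all libraries (5158 to 8333 in Nrf2-/-, 5782 to 9801 in WT). Neuronal Elavl3 was at 2 to 18 counts in Nrf2-/- and at most 15 in WT under isosmotic conditions or 1 h of stress. In WT at 6 h, a time without Nrf2-/- libraries here, it was at 67 to 105. The WT libraries at 6 h thus held more counts of Elavl3, and practically none of Elavl4.

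Of 54 keratins, 9 were at 100 or more counts in every Nrf2-/- library and 8 in every WT library. Krt14, the partner keratin of basal cells, was at 5259 to 8657 against 132 to 352 in WT. Of the p53 family, Trp53 was read in all libraries (6425 to 9927 in Nrf2-/-, 11255 to 17232 in WT) and Trp73 at 0 to 8. Of the desmogleins, Dsg2 was read in all libraries (1344 to 1964 in Nrf2-/-, 1749 to 4356 in WT), and Dsg1a was at 10 to 12 in Nrf2-/- and at 0 in WT. Dsg4 was at 0 in Nrf2-/- and at 2 to 23 in WT under isosmotic conditions or 1 h of stress. In WT at 6 h, a time without Nrf2-/- libraries here, Dsg4 was at 29 to 62. Dsg1a was thus higher and Dsg4 lower in Nrf2-/- cells, both at low counts.

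The 21 genes lie on 11 chromosomes and none is within 500 kb of another, the closest pair being Clec2f and Mgp, 7852 kb apart. Chromosome 1 holds Serpinb5, Ackr3, Aim2 and Aox4. In the M21 annotation 19 of the 21 are protein coding. Of the 42 coding genes that flank them, 19 had no library above 10 counts, 10 had every Nrf2-/- CPM above every WT CPM and 2 had every one below. Among all 21055 genes above 10 counts in some library, the shares were 9.66% above and 9.14% below.

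Flanking genes did not always follow the member. Cldn6 lies 0.138 kb from Cldn9 and was at 14 to 47 counts in Nrf2-/- cells, where Cldn9 was at 2599 to 3725. In WT cells Cldn6 reached at most 50 under isosmotic conditions or 1 h of stress. At 6 h it was at 69 to 121 in WT cells, where Cldn9 was at 0 to 2. Next to Trp63, Tprg was at 379 to 422 against 19 to 82 in WT and P3h2 at 1021 to 1391 against 251 to 820. Next to Elavl4, Dmrta2 was at 582 to 635 against 35 to 147, while Agbl4 was at 0 in Nrf2-/- cells. So both flanks of Trp63, but only 1 of Elavl4, had higher counts in Nrf2-/- cells.

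Because Trp63, Dsg3, Krt6a and Serpinb5 are markers of stratified epithelium, 24 other genes of such epithelia were listed after the members had been seen, and the list carries no test. In 11 of them every Nrf2-/- CPM lay above every WT CPM, and in 3 every one lay below. Over the 21055 genes above 10 counts in some library the shares were 9.66% and 9.14%, and 2 of the 24 had no such library. Krt5, the keratin partner of Krt14, was at 72 to 129 counts in Nrf2-/- and 0 to 5 in WT, and Krt16 at 637 to 1147 against 12 to 81. The desmosomal genes Perp (4960 to 6132 against 1490 to 2654) and Pkp1 (4492 to 4813 against 1178 to 2511) were higher too. Another desmosomal gene, Dsc2, was lower (289 to 454 against 646 to 1726). Jag2, a Notch ligand, was lower, at 32 to 78 counts against 816 to 1875. Summed over the list, Nrf2-/- libraries held 1920 to 2186 CPM and WT libraries 1030 to 1585.

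**Figure D5:**
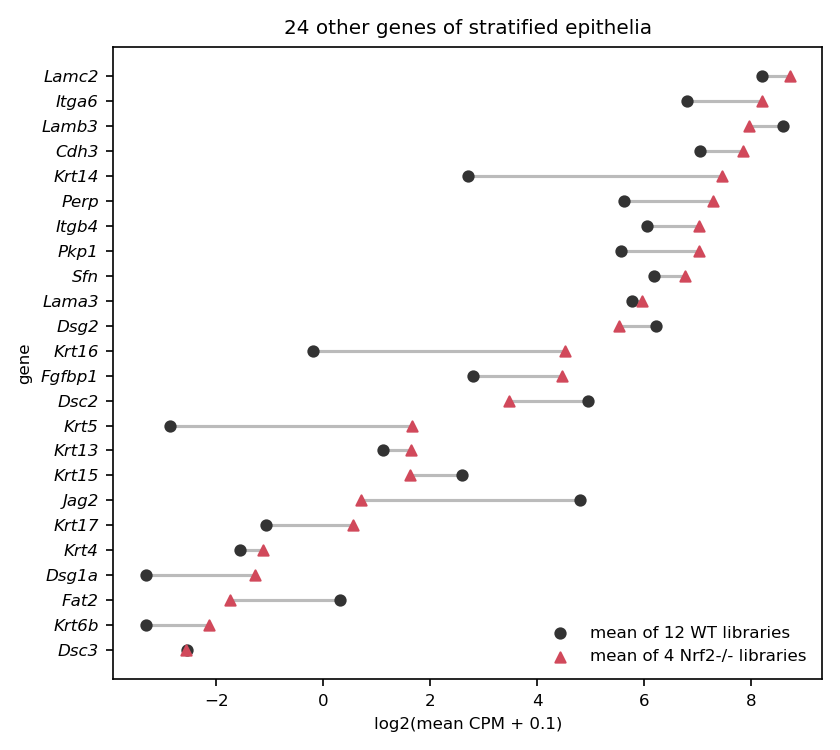
Mean CPM of 24 further genes of stratified epithelia (rows) in 4 Nrf2-/- libraries (red triangles) and 12 WT libraries (black circles), on a scale of log2(mean CPM + 0.1). Grey lines join the 2 means. Krt14, Krt16 and Krt5 lie far to the right in Nrf2-/- cells and Jag2 far to the left.

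Other identity markers were counted in the same way. Of the 21055 genes above 10 counts in some library, 9.66% were above and 9.14% below. Of 13 epithelial markers, 7 had every Nrf2-/- CPM above every WT CPM and 0 below, with Krt7 at 31026 to 46198 counts against 7554 to 17188 and Epcam at 6595 to 13157 against 1875 to 4529. Of 12 ureteric duct markers, 0 were above and 4 below, with the kidney factor Pax2 at 819 to 977 counts against 4993 to 39220, and the list sum was 463 to 514 CPM against 714 to 3105. Of 22 mesenchymal markers, 5 were above and 6 below, with Vim at 5347 to 7787 counts against 34853 to 56895 and Twist1 at 0 against 198 to 817, but with Fn1 at 108137 to 135077 against 59435 to 107389 and Postn at 52 to 107 against 0 to 8. The mesenchymal sum overlapped, at 3318 to 4425 CPM against 2809 to 4048. The part of these marker differences in the members' levels was not tested.

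Of 15 neuronal markers, Elavl4 is the single member. Elavl4 apart, Gap43 was at 504 to 584 counts in Nrf2-/- and 0 to 16 in WT libraries, while the synaptic gene Snap25 and the neurofilament gene Nefl were at 0 in every Nrf2-/- library. Of the 15, 4 were above and 1, Map2, below (1 to 4 counts against 27 to 57). Elavl4 is among the 4 through the choice by count, so it is no result about the list. Over the 21055 genes above 10 counts in some library the shares were 9.66% above and 9.14% below, and 4 of the 15 had no such library. Without Elavl4, the sum of the list was 29.3 to 36.6 CPM in Nrf2-/- and 12.3 to 18.6 in WT libraries. Of 18 germline genes, Rhox5 was at 1454 to 5202 counts against 3 to 27 in WT, missing the rule through 1 WT library. The other 17 did not separate the lines upward, but 10 of the 18 had no library above 10 counts. Of 23 Nrf2 targets, 1 was above and 14 below, Nqo1 being at 0 to 9 counts against 60 to 398.

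The remaining lists held no member. Over the 21055 genes above 10 counts in some library, 9.66% were above and 9.14% below. The counts above and below were 1 and 1 of 12 principal cell, 1 and 0 of 7 intercalated cell, 1 and 2 of 11 proximal tubule, 0 and 0 of 7 thick ascending limb, 0 and 0 of 3 distal convoluted tubule, 1 and 2 of 6 podocyte, 0 and 2 of 12 endothelial, 0 and 1 of 13 immune and 6 and 4 of 24 imprinted genes. Unlike the 21055, these lists keep genes with no library above 10, among them 4 principal cell, 5 thick ascending limb and 8 imprinted genes. The immune sum was 9.76 to 15.8 CPM in Nrf2-/- and 11.4 to 32.1 in WT libraries, and Aim2 and Cd36, which immune cells also express, thus did not come with a higher immune list. Of 6 sex chromosome genes, 1 was above and 0 below, and 4 Y-linked genes were at 100 or more counts in all 16 libraries of both lines.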

How the data were processed

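RNA sequencing of mIMCD3 cells was analysed as 16 libraries in 8 groups of 2, grouped by the labels. The authors deposited raw counts per gene symbol, 1 library at a time and without normalization. Reads were aligned to mm10 with Hisat2 according to the methods, whereas the submitters' processing notes name Bowtie2; both name SAMtools and featureCounts. Versions, annotation, strand setting and the treatment of shared reads are not given in the sources used here. 1 label describes the RNA as from primary cells, and all others as mIMCD3. Lines without a gene name in 2 libraries were skipped. The methods call the 2 libraries of a group biological replicates and do not say whether they came from separate cultures, so p-values measure the spread between these libraries.

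The members and the lists were chosen with earlier results of these data known. CPM was computed after TMM. Tests used edgeR 4.0.16 in R 4.3.3 (robust quasi-likelihood, 1 coefficient per group over all 16 libraries, edgeR's filter on low counts, 19509 genes, Benjamini-Hochberg over all). DESeq2 1.42.0 was an alternative, as were RLE size factors, no filter, a replicate block, only the libraries compared, other limits of the rule and each library left out. On simulated counts for the Nrf2-/- 1 h comparison (18892 genes, 200 changed), 97 of 100 genes changed 4-fold and 88 of 100 changed 2-fold were recovered, with 8 false calls. The simulation gave every group the same spread per gene and not the wider spread of the Nrf2-/- 1 h pair. These rates therefore do not give the recovery in the real comparison. Positions came from GENCODE M21 on GRCm38 and promoters from RefSeq GRCm38.p6, both matched by symbol. The values of 1 member are not reported here. The text names the other members, every such member above 10 counts at 6 h or called in a test, genes next to each limit, Nfe2l2, and genes of the lists; family, neighbour and stratified epithelium genes were chosen after values were seen. Library totals of 34484296 to 50774875 counts set the precision.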

Additional observations from a re-analysis of the deposited data

How the results depend on the processing

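The number of members depended on the limits: 9 genes were found with at most 5 counts in WT, 35 with at most 20, 39 with at least 50 counts in Nrf2-/- and 12 when all 12 WT libraries had to be at or below 10, against 21. Leaving out 1 library gave 21 to 25, the symbol prefixes kept gave 22 and leaving out both Nrf2-/- 1 h libraries gave 26, the last 2 chosen after seeing the data. These leave-outs only loosen the rule and cannot lose a member. Of the 21, 19 rather than 12 stayed at or below the limit in the other WT libraries when the limit was 20. Between WT DMSO 6 h and 1 h, 2 genes rose and 0 fell with only the libraries compared, where 4 members passed the filter, 4 fell without the filter, and leaving out 1 library gave 1 to 4 higher and 0 to 3 lower. Where that left a group with 1 library, edgeR assumes that it varies like the others. Over the alternatives the log2 fold change ran from 1.73 to 2.75 for Gm9732 and from 1.20 to 2.33 for Dsg3. With only the libraries compared, the edgeR adjusted p was 0.0104 for Gm9732 and 0.0248 for Dsg3. Cd36, Aox4 and Platr16 passed the filter only through other libraries, so their p-values are not given. The calls of these 5 genes were lost without DMSO 1 h replicate 1 (Gm9732, Dsg3, Aox4), DMSO 1 h replicate 2 (Dsg3, Cd36, Aox4, Platr16), DMSO 6 h replicate 1 (Dsg3, Aox4, Platr16) or DMSO 6 h replicate 2 (Cd36). No alternative reversed a called gene. The other 2 comparisons gave 0 calls of members under each alternative run.

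Replicate numbers did not pair the samples: over 28 pairs of groups the deviations of same-numbered libraries correlated between -0.0794 and 0.123. With the replicate block, 4 genes rose and 2 fell in WT, 0 were called in the other 2 comparisons, and the Nrf2-/- median log2 fold change was -0.07. At 0 to 28 counts a gene, depth limits every WT value.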
